A study of Drosophila melanogaster with 3 samples.

Results

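HmgZ, HmgD, Dsp1, bbx, cic and Ssrp are the 6 members described here, out of 13945 protein-coding genes on the 6 chromosome arms. They were chosen by name, as genes whose proteins carry an HMG box but do not belong to the Sox family, and the rule that defines them uses no measured value, although the set was chosen with earlier results of these data known. Chromatin was immunoprecipitated from whole Drosophila melanogaster embryos aged 6 to 16 h, males and females together, of a transgenic line that expresses Sox100B fused to GFP at its C terminus. The 3 samples are biological replicates of 1 group, so no comparison between conditions exists. The sources used here do not give the promoter of the fusion gene. The free-text descriptions call these samples input controls, whereas their antibody field reads Sox100B and they list a separate control experiment, so they were read as immunoprecipitations. In whole embryos, strong binding in few cells and weak binding in many cannot be told apart. A region was counted for a member when its summit lay in the gene body or up to 5 kb to either side, a stretch called the window below. By this rule the list of 5683 regions that passed the authors' irreproducible discovery rate threshold (the IDR list) held 15 regions of the members.

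An HMG box is a small DNA-binding fold that enters the minor groove and bends the helix. In Sox proteins the box reads a short core sequence, whereas in the HMGB class it binds with little sequence preference. HmgZ, HmgD and Dsp1 are HMGB-class proteins: HmgD is abundant on early embryonic chromatin, HmgZ is its close relative, and Dsp1 acts as a corepressor of the Rel factor Dorsal. The protein made from cic, Capicua, is a sequence-specific repressor that receptor tyrosine kinase signalling inactivates. Ssrp is the HMG-box subunit of FACT, a histone chaperone that works during transcription and replication. The bbx protein, Bobby sox, is a further HMG-box protein.

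The sequences at 4 summits are shown because they carry the strongest region of Dsp1, the 2 strongest of bbx and the strongest of cic. A 5th sequence comes from an inner start site of cic, where 2 of 3 replicates had a strong region and the IDR list had none. Each runs 5′ to 3′ on the plus strand of dm6 and extends 60 bp to each side of the summit. Capitals mark matches to the 7 patterns searched, on either strand. The patterns were the Sox core ACAAAG or ACAATG, the DRE site TATCGATA, the GAGA site GAGAG, the GATA site AGATAA or AGATAG or TGATAA or TGATAG, the E-box CAGCTG, the homeodomain site TAATTA, and the Capicua site TGAATGAA or TGAATGGA.
Dsp1 upstream, chrX:16332951-16333071: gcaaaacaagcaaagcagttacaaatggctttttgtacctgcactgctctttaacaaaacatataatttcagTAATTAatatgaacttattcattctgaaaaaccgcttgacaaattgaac
bbx strongest, chrX:21367782-21367902: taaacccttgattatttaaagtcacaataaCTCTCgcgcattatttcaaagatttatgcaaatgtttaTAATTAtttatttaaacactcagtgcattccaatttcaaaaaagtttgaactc
bbx next, chrX:21366464-21366584: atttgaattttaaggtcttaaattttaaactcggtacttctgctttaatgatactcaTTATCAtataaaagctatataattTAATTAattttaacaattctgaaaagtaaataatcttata
cic strongest, chr3R:20261582-20261702: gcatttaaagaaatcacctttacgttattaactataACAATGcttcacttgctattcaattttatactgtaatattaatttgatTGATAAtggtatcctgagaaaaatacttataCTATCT
cic inner start, chr3R:20292625-20292745: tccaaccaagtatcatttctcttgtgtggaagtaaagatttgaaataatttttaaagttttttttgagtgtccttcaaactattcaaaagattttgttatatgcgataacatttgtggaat
The Dsp1 summit and both bbx summits have TAATTA within 60 bp. In cic, the capitals at the strongest summit are the Sox core, a GATA site on each strand and no other pattern. The last sequence holds none of the patterns.

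Of the 6 members, 5 had at least 1 IDR region in their window, and Ssrp had none. Over all protein-coding genes 42.0% had one, and the share rises with gene length: 36.2% of genes under 5 kb, 54.8% of genes of 5 to 20 kb and 70.8% of longer genes. Ssrp falls in the shortest class, cic in the longest and the other 4 in the middle one, so the count of 5 lies near what these classes give and is no result about the members. What stood out was the rank of the regions, by the signal value the peak caller gave each region. A region of rank 100 or better lay in the window of 4 members, against 1.86% of all genes. HmgZ and HmgD share all 4 of their regions, so these 4 members rest on 3 regions. The region of Dsp1 lies at this limit, with rank 96 in the IDR list and 102 in replicate 2. HmgZ, HmgD, bbx and cic had 4 or more IDR regions, against 5.50% of all genes, and the count for HmgZ and HmgD is again of the same regions. That count did not hold under other rules: only cic kept 4 or more in the gene body alone, and only cic when any 1 replicate was left out and a strong region was required in both others. Both limits were set after the values had been seen. The shares of 1.86% and 5.50% were not split by gene length. No member with a region was under 5 kb, so these shares are not like for like. The order of the loci by strongest region was HmgZ with HmgD, then bbx, Dsp1 and cic. In each replicate the order was the same, and the replicate ranks of neighbouring loci did not overlap, although those of bbx (64 to 89) and Dsp1 (93 to 102) lay close.

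**Figure D1:**
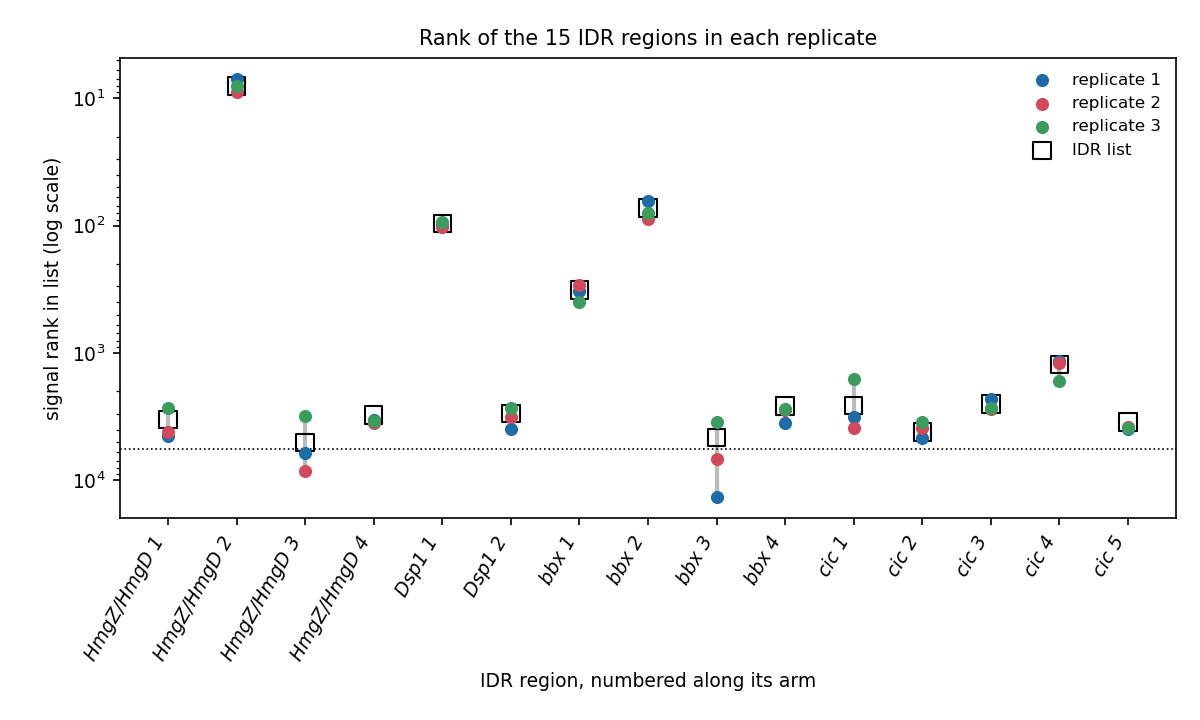
Signal rank of the 15 IDR regions of the members (1 is strongest, log scale) in replicate 1, 2 and 3 (points), joined by a grey bar from lowest to highest, with the rank in the IDR list as an open square. The dotted line is rank 5683, the length of the IDR list; the regions HmgZ/HmgD 3 and bbx 3 cross it, and the strongest regions of HmgZ/HmgD, bbx and Dsp1 span few ranks.

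HmgZ (FBgn0010228) and HmgD (FBgn0004362) lie on arm 2R, at 21697488–21707861 on the minus strand and 21701458–21716727 on the plus strand, with 3 annotated start sites each. Their bodies share 6404 bp, in which they are transcribed in opposite directions. The strongest IDR region of all members, at 21703150–21703707, lay in this shared stretch, in an intron of both genes. Its signal was 965 in replicate 1, 1494 in replicate 2 and 957 in replicate 3, which ranked 7, 9 and 8 among 30000 regions, a mean of 8 ± 1 (SD, n = 3). It ranked 8 in the IDR list, and only 18 of 13945 genes had a stronger region in their window. The 3 replicate summits fell within 24 bp of each other, which is less than the width of the region, 558 bp. The summit lay 609 bp upstream of the innermost HmgZ start site, which is the nearest coding start, and 1981 bp inside HmgD from its outermost start. These data cannot say which of the overlapping genes the region belongs to.

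The other 3 regions of the HmgZ and HmgD windows were far weaker. One, at 21700638–21701101, lay 588 bp upstream of the outermost HmgD start and in an intron of HmgZ. It ranked 4486, 4195 and 2691 in replicates 1, 2 and 3. Another, at 21709519–21709982, lay in an intron of HmgD and 1890 bp upstream of the outermost HmgZ start, and ranked 3378, 3577 and 3431. Its nearest coding start was that of CG30403, at 1862 bp, while the start of the non-coding gene lncRNA:CR44749 lay 156 bp away. The weakest, at 21706285–21706748 in introns of both genes, ranked 6090, 8403 and 3125, so that only replicate 3 placed it among its strongest 5683. None of the 3 approached the ranks of the strongest region in any replicate.

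Counted without regard to strength, regions were dense at this locus, but most were weak. The pooled list, which holds 30000 regions made from all 3 replicates and includes background by design, had 20 in the HmgZ window and 31 in the HmgD window. Per kb of window this was 0.982 and 1.23, above 99.6% and 99.9% of protein-coding genes. The replicates gave 16.7 ± 1.15 (SD, n = 3) regions in the HmgZ window and 23.0 ± 2.65 in the HmgD window. The windows overlap, and all 20 pooled regions of the HmgZ window also lie in the HmgD window, as do nearly all of its replicate regions. Both densities therefore largely count the same regions.

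**Figure D2:**
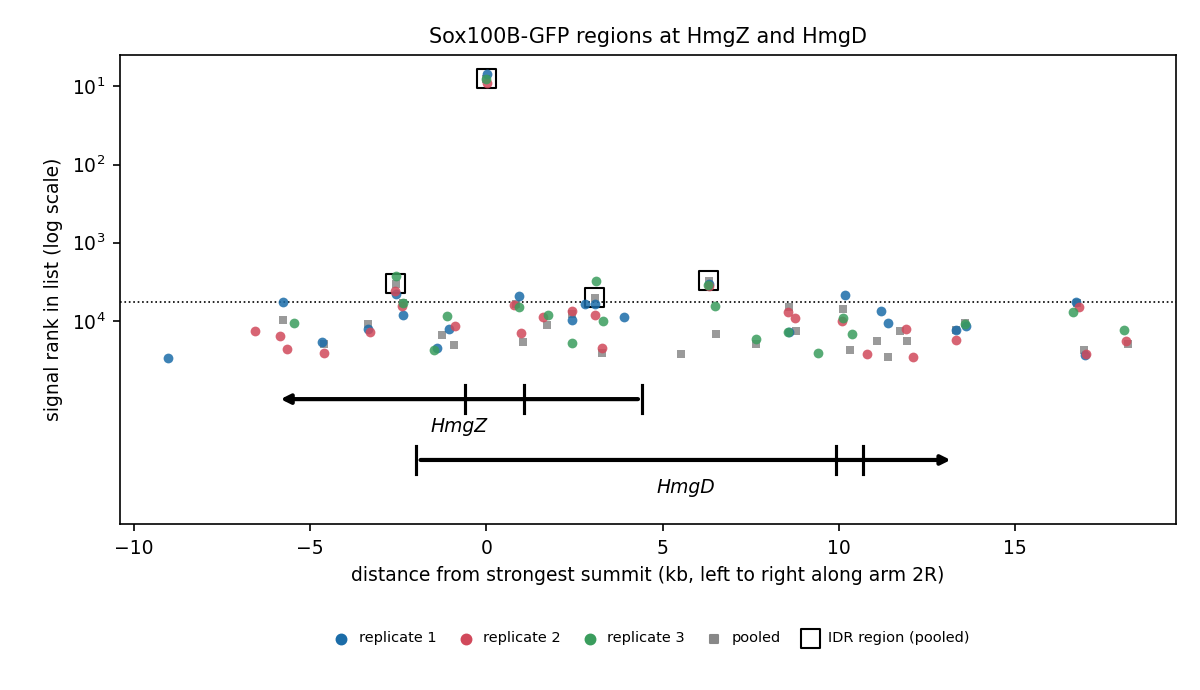
Regions in the HmgZ and HmgD windows by distance from the strongest summit (kb, x axis) and by signal rank in their list (y axis, log scale, 1 is strongest); circles are replicate lists, grey squares the pooled list, open squares IDR regions, and the dotted line rank 5683. Arrows under the points show the gene bodies in the direction of transcription, with bars at annotated start sites, and carry no rank. The replicate ranks of 7, 9 and 8 stand alone at the top, and the other regions lie at rank 2691 or weaker.

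Dsp1 (FBgn0278608, X 16333612–16340624, plus strand, 2 annotated start sites) had 2 IDR regions. The stronger, at X 16332760–16333254, lay upstream of the gene with its summit 601 bp from the outer start site. Its signal was 509 in replicate 1, 831 in replicate 2 and 555 in replicate 3, with ranks of 97, 102 and 93, a mean of 97.3 ± 4.51 (SD, n = 3). The summits of the replicates lay within 25 bp of each other. The summit lies in an intron of CG9921, a neighbour on the opposite strand whose start site is 589 bp away. The start sites of the 2 genes lie on the same side of the summit, at nearly equal distances from it. The other region, at X 16335185–16335448, lay in an intron of Dsp1, 932 bp upstream of the inner start site. It ranked 3976, 3159 and 2725 in replicates 1, 2 and 3 (mean 3287 ± 635). When only the gene body was counted, this intronic region was the strongest left for Dsp1. Both start sites of Dsp1 therefore had an IDR summit within 1 kb, and each replicate had a strong region there too.

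bbx (FBgn0024251, X 21363028–21373145, plus strand, 4 annotated start sites) had 4 IDR regions, of which 2 lay in the gene and 2 beyond its end. The strongest, at X 21367571–21368071, had its summit 197 bp upstream of the second start site. Its signal was 597, 880 and 578 in replicates 1, 2 and 3, and its ranks were 64, 89 and 79, a mean of 77.3 ± 12.6 (SD, n = 3). The next, at X 21366303–21366745, lay 1515 bp upstream of the same start site and ranked 325, 291 and 395 (mean 337 ± 53.0). Both are in an intron of bbx, and the coding gene waw is annotated over the same stretch. Their summits were 1318 bp apart, and no IDR summit lay within 1 kb of the outermost or the innermost bbx start site.

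Downstream of bbx the regions lay closer to slgA, which encodes a proline dehydrogenase, than to bbx itself. The region at X 21373547–21374010 had its summit 223 bp from a start site of slgA and ranked 13638, 6862 and 3474 in replicates 1, 2 and 3. In replicate 1 its −log10 q was 0.768 and in replicate 3 it was 2.997, the widest disagreement among the 15 regions. The region at X 21375731–21375888, in an intron of slgA and 271 bp from one of its start sites, ranked 3575, 2801 and 2760. Without these, bbx keeps 2 IDR regions for which its own start site is the nearest.

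**Figure D3:**
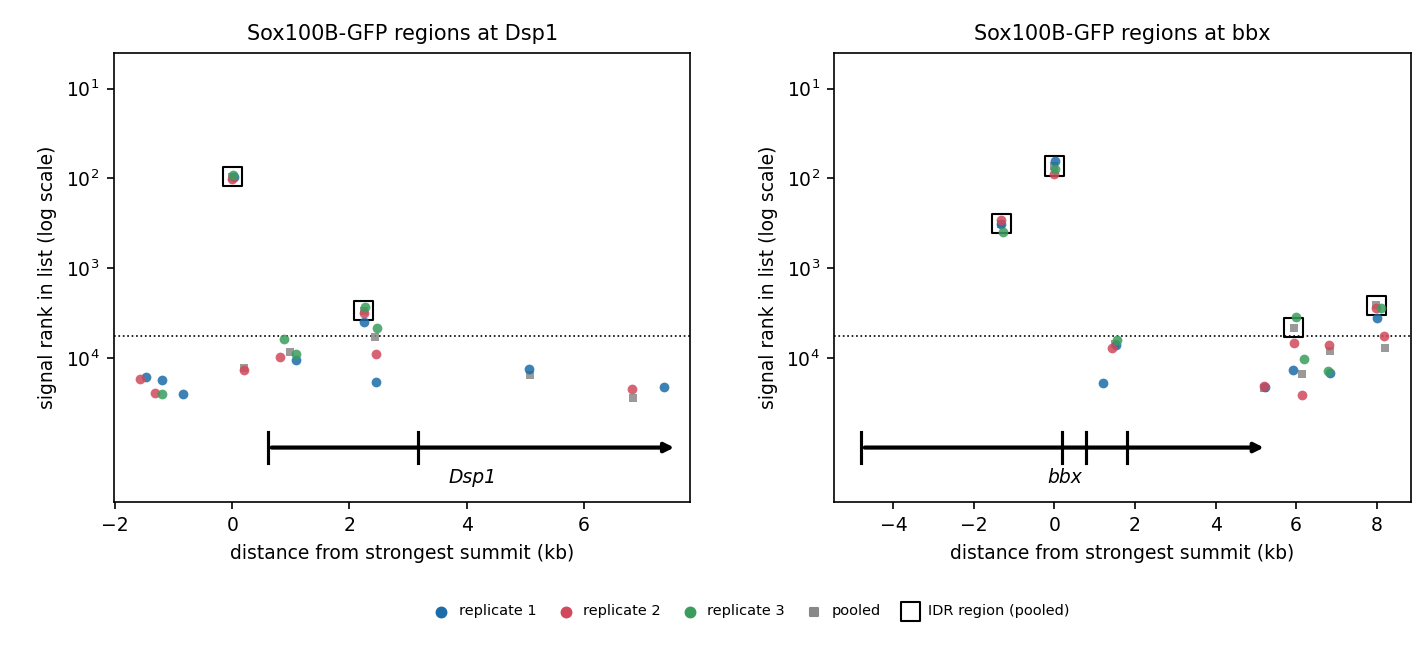
Regions in the Dsp1 window (left) and the bbx window (right) by distance from the strongest summit (kb) and by signal rank in their list (log scale, 1 is strongest), with symbols, arrows and dotted line (rank 5683) as in the map of HmgZ and HmgD. The strongest region lies 601 bp before the outer Dsp1 start on the left and 197 bp before the second bbx start on the right, each tightly placed in all 3 replicates.

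cic (FBgn0262582, 3R 20252770–20303942, plus strand, 3 annotated start sites) had 5 IDR regions, the most of any member, all in the gene body and all weaker than the leading regions of the other loci. The strongest, at 3R 20261497–20261798, lay in an intron, 8872 bp inside the gene from the outermost start site. It ranked 1162, 1195 and 1648 in replicates 1, 2 and 3 (mean 1335 ± 272, SD, n = 3), with signals of 160, 259.5 and 140. Another intronic region, at 3R 20259372–20259835, ranked 2317, 2740 and 2726. The last, at 3R 20285811–20285938, lay far inside the gene and ranked 3932, 3838 and 3877 in replicates 1, 2 and 3.

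At the outermost cic start site, 2 overlapping IDR regions had their summits in the 5′ UTR, 337 and 539 bp from the start. They share 262 bp and their summits are 202 bp apart, and replicate 2 had 1 region for both, so they may not be separate sites. The one nearer the start, at 3R 20252875–20253338, ranked 3181, 3918 and 1609. The other, at 3R 20253077–20253540, ranked 4632, 3918 and 3512. No replicate placed either among its strongest 1500.

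The 2 inner start sites of cic, 40274 and 40474 bp from the outermost, gave a different picture in the replicates and in the IDR list. Replicate 2 had a region at 3R 20292453–20292916 of rank 971 and signal 296.5, with a −log10 q of 3.827. Replicate 3 had one at 3R 20292517–20292972 of rank 1178, signal 174 and −log10 q of 3.765. The 2 regions share 400 bp, their summits are 60 bp apart, and they lie 359 and 299 bp upstream of the nearer inner start. In these replicates they outranked every other region of cic. Replicate 1 had no region there, its nearest summit lying 851 bp away at rank 13734. The pooled list also had none, with its nearest summit 1030 bp away at rank 11045, although it was made from the same replicates, and so the IDR list had no region at the inner start sites. The cause was not tested.

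**Figure D4:**
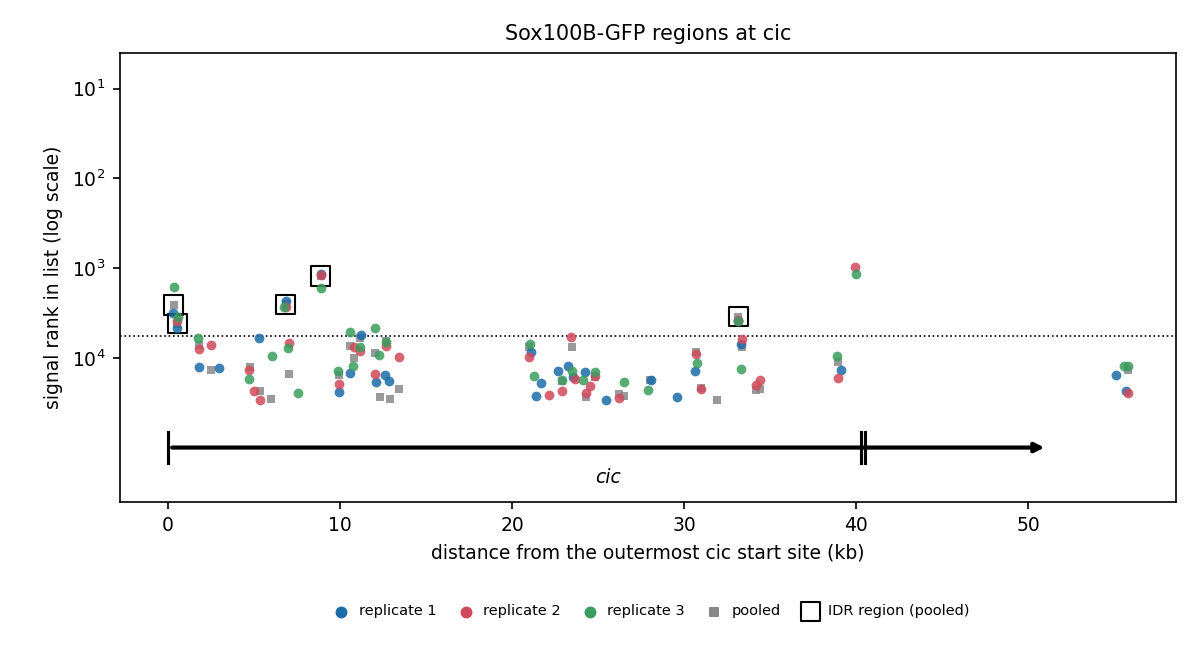
Regions in the cic window by distance from the outermost start site (kb) and by signal rank in their list (log scale, 1 is strongest), with symbols, arrow and dotted line (rank 5683) as in the map of HmgZ and HmgD. Near 40 kb, replicate 2 (rank 971) and replicate 3 (rank 1178) have a region with no pooled or replicate 1 counterpart, beside the 2 inner start sites.

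Ssrp (FBgn0010278, 2R 23806361–23809004, minus strand, 1 annotated start site) was empty. No region of the IDR list, the pooled list or any replicate list had its summit in the 12.6 kb window. The summit nearest to the gene lay 7900 bp away in replicate 1, 10260 bp in replicate 2, 8567 bp in replicate 3 and 10261 bp in the pooled list, where it ranked 16698. The nearest IDR summit was 30950 bp away. An empty window in every list was found for 14.6% of all protein-coding genes and for 17.7% of genes under 5 kb. With read depth unknown, this says only that no region reached the strongest 30000 of a list.

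The place of the 15 regions is partly set by the window, which admits only summits in or near a coding gene. Their summits lay in introns of coding genes in 12 cases and in a 5′ UTR in 2, while the remaining 1, downstream of bbx, lay outside coding genes. Introns hold 54.4% of all IDR summits and 59.3% of the 5218 that lie in the window of any coding gene, and 0 of the 15 lay in a coding exon. Within 1 kb of a coding start site lay 9 of the 15, against 43.6% of all IDR summits and 47.5% of those in a window. The strong regions of single replicates in the windows, meaning those among the strongest 5683 of their list, numbered 17, 14 and 19, and 62.3% ± 3.82 of them (SD, n = 3) lay within 1 kb of a start site. That share was not computed over all strong replicate regions, so it has no like background here. Of the 16 start sites annotated for the members 7 had an IDR summit within 1 kb, against 18.5% of all coding start sites, though neighbouring start sites can share 1 summit. Strong regions of all 3 replicates overlapped 13 of the 15, against 71.0% of the IDR list, and for the other 2 only replicate 3 had one. This overlap is not independent of the list, since the IDR regions are the strongest 5683 of the pooled list. The median rank was 2601, against 2842 for the whole list, so the members' regions as a group were of ordinary strength and 3 loci held the strong ones. The IDR list ends at pooled rank 5683, and the weakest region inside it and the strongest pooled region outside it ranked 5037 and 5916 at HmgZ and HmgD, 2994 and 5935 at Dsp1, 4605 and 7035 at bbx, and 4186 and 6083 at cic. GC content within 100 bp of the summit had a median of 31.3% and ranged from 22.9% to 49.3%, with a median of 32.3% over all IDR summits.

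Of the sequence patterns, the GATA site was the most frequent both at the members' summits and over all IDR summits. It was also searched with the most words. A GATA site lay within 100 bp of 8 of the 15 summits, against 42.1% of all IDR summits, and all 4 regions of HmgZ and HmgD had one. The Sox core was found at 1 summit, the strongest of cic, against 24.9% of all IDR summits, so that none of the 3 regions of rank 100 or better held it within 100 bp. The homeodomain site TAATTA lay at 5 summits against 20.7%, among them the strongest of Dsp1 and of bbx. GAGAG lay at 3 against 19.2%. The DRE site, the E-box and the Capicua site were found at 0 of the 15, against 1.79%, 5.98% and 2.60% of all IDR summits. With 15 summits these counts describe the regions, and a missing match says nothing about the factor. The 2 bbx summits and both 5′ UTR summits of cic are close neighbours, so they are not independent.

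Of 7 other HMG-box genes outside the Sox family, 5 had an IDR region in their window, where 42.0% of all genes had one: pan, which encodes the Wnt effector TCF, with its strongest region at rank 2898, the chromatin remodelling subunit gene Bap111 at rank 1646, the testis genes tHMG1 and tHMG2, which share 1 region of rank 2053, and the piRNA pathway gene mael at rank 3491. Only at tHMG2 was the gene's own start site the nearest to its strongest region, at 1549 bp. polybromo and TFAM, the mitochondrial transcription factor gene, had none. Of 4 genes for partners of the member proteins, gro, which encodes the corepressor Groucho, had a region 143 bp from its start at ranks 756, 529 and 625, and dl, the Dorsal gene, had one 589 bp from its start at ranks 2749, 1187 and 1375. dre4, which encodes the FACT partner of Ssrp, had no region in the pooled list and Atx-1 had none either. Of 4 genes that Capicua represses, tll, hkb and ind had no IDR region. The fourth, aos, which encodes the EGF receptor inhibitor Argos, had 6, the strongest 267 bp from its start at ranks 67, 77 and 75. Over all genes 5.50% had 4 or more. The 2 of 4 partner genes and 1 of 4 repressed genes with a region also stand against 42.0% of all genes. tll, hkb, ind, dre4 and Atx-1 are under 5 kb, where 36.2% of genes had a region. With so few genes these counts are no result about either list.

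The regions most alike in replicate rank to the leading regions are named for description only. Because every list is ranked throughout, close counterparts are expected for any region with steady ranks and say nothing particular about these loci. Likeness was measured as the largest difference in log10 rank over the 3 replicates. For the strongest region of HmgZ and HmgD, the most alike were regions 198 bp from the start of CG31145 (ranks 6, 11 and 10, largest difference 0.097) and 282 bp from the start of cu (ranks 8, 10 and 6, difference 0.125). For Dsp1 they were regions nearest to jp (0.034) and Rh5 (0.047), for bbx regions nearest to Btk (0.061) and aos (0.063), and for cic regions nearest to l(1)G0469 (0.006) and Jheh3 (0.016). On this log scale neighbouring ranks lie closer together further down the list, so the differences are not comparable between loci.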

How the data were processed

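Per the labels, chromatin from 3 biological replicates was sheared by sonication to 200 to 800 bp and immunoprecipitated. The authors deposited 5 region lists on dm6. Per the deposited file descriptions, each replicate list and the pooled list (30000 regions each) hold peaks and background as IDR input, and each draws on a shared file whose content is not described. Which aligner, peak caller and IDR threshold were used is not given in the sources used here, so their effect on the lists could not be checked. The deposited signal is the peak caller's, on an unstated scale, and was used to rank regions within a list. The deposited −log10 q was taken as given. Read depth is unknown, and no control list was analysed here.

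Gene bodies, start sites and the 13945 protein-coding genes came from Ensembl release 115, and sequence from the RefSeq copy of genome release 6, whose arm lengths hold every region. A replicate region was matched to an IDR region by overlap and nearest summit. Strong replicate regions are the strongest 5683 of a list. q was under 0.05 for 8532, 10358 and 8146 regions in replicates 1, 2 and 3. No region had the same coordinates in 2 replicates. No tests were run: where it was computed, the same share over all genes or all IDR regions stands beside a value. The members and the gene lists were chosen with earlier results of these data known. Named genes were the members, the genes nearest to or holding their IDR summits, 3 lists of related genes, also those without a region, and the 2 most alike regions per locus. Alternatives were the flank, a stricter list, other matching rules and leaving out each replicate. Window, rank, overlap and pattern steps were tested on simulated data. Analyses used Python 3.11.15, NumPy 2.4.6, pandas 2.3.3, SciPy 1.17.1 and matplotlib 3.10.9.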

Additional observations from a re-analysis of the deposited data

How the results depend on the processing

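Ssrp had no IDR region and the other 5 members had at least 1 under every alternative run (other flanks, the stronger 2841 IDR regions, any part of a region in the window, nearest start site, and without each replicate). The number of IDR regions in the windows was 15, and 8 in the stronger 2841. The median per member was 4, and became 2.5 in the gene body alone, 1 in the stronger 2841 and 1.5 when the member's start had to be the nearest coding one. In the gene body alone Dsp1 kept only its intronic region, and its mean rank became 3287. The share of summits within 1 kb of a start site was 60%, and became 50% in the gene body, 52.9% with a flank of 10 kb, 66.7% with start sites of all annotated genes and 26.7% within 500 bp. The share overlapped in all replicates was 86.7%, and became 73.3% when the overlap had to cover 50% of both regions. It was 100% in the stronger 2841 and 40% with fewer strong replicate regions. The first of these 2 settings favours overlap and the second lowers it, by construction. The share with a Sox core was 6.67%, and became 12.5% in the stronger 2841 and 13.3% within 200 bp of the summit. For start sites, replicate overlap and the Sox core, the shares over all IDR regions were not recomputed under these settings. These shifts rest on few regions and have no background beside them. The median over the 5 members of the mean replicate rank of the strongest region was 77.3, and 71.5 to 84 when 1 replicate was left out. By the main rule, HmgZ and HmgD enter this median and that of regions per member with the same regions. Leaving out a replicate, with a strong region required in both others, left 13 regions in each case. The number of members with 4 or more regions was 4, and became 1 (cic) in each of these cases, in the gene body and by nearest start, 2 with a flank of 1 kb and 0 in the stronger 2841. The share of all genes fell too, from 5.50% to between 1.38% and 3.68% in these settings. No paired analysis was possible because the samples form 1 group. Read depth is unknown and limits what an empty window means.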

Other observations

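The strong regions at the inner start of cic that the pooled list lacks are part of a wider pattern in the lists. Among the strongest 1500 regions of each replicate, 48 (3.20%) in replicate 1, 59 (3.93%) in replicate 2 and 68 (4.53%) in replicate 3 overlapped no region of the pooled list, although that list is longer and was made from the same replicates. The IDR list therefore leaves out some regions that rank high in single replicates. The cause was not tested.

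Replicate 1 had 3 strong regions outside the IDR list in the windows of HmgZ and HmgD. One of rank 4866 lay 131 bp from the middle HmgZ start site, and one of rank 4685 lay 262 bp from an inner HmgD start site. The best pooled regions overlapping them ranked 6134 and 7070, below the IDR list. The last, of rank 5678, lay 519 bp from the start of CngB, and its best pooled region ranked 9655. In cic, 3 more of ranks 5598 in replicate 1 and 5170 and 4648 in replicate 3 lay between 10556 and 12050 bp from the nearest cic start. Over all windows, 4 of 17 strong regions in replicate 1, 1 of 14 in replicate 2 and 3 of 19 in replicate 3 overlapped no IDR region. The same share over all strong regions of each replicate list was not computed, so these counts are no result about the members.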
